A study of Mus musculus with 30 samples.

Results

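The comparison described here is disease progression in extrasynaptic diaphragm of SBMA mice, 26 weeks against 15 weeks of age. Its members are 8 RNA-seq libraries of 30 in the whole series, chosen by the labels of the libraries: 4 from SBMA males at 26 weeks and 4 from SBMA males at 15 weeks, each from a separate animal. SBMA mice carried BACfxAR121, a transgene that models spinal and bulbar muscular atrophy, SBMA. The controls, 4 at 26 weeks and 3 at 15 weeks, were male littermates that carried the same transgene plus HSA-Cre, a recombinase driven in skeletal muscle, and the study calls them muscle-rescued. Each diaphragm gave an extrasynaptic piece, without neuromuscular junctions, and a perisynaptic piece that holds them. The genotype is spelled BACfxR121 in the sample labels and BACfxAR121 in the series description. The level of the transgene was not analysed here.

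Spinal and bulbar muscular atrophy is a polyglutamine expansion disease that affects lower motor neurons and skeletal muscle of males. Innervated muscle holds acetylcholine receptor transcripts mainly in the nuclei under the nerve terminal, and muscle that loses its nerve makes them along the whole fibre. Fibre types differ in their myosin heavy chains, their calcium handling and their use of oxygen and fuel.

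The 8 libraries held between 21160671 and 29444206 counts. Muscle fibre markers were abundant in all of them, with summed levels of 46251 to 51237 CPM (counts scaled to library size with TMM factors) at 26 weeks and 55629 to 62726 CPM at 15 weeks. Chrne, the adult receptor subunit gene that marks junctional nuclei, averaged 0.506 CPM at 26 weeks and 1.52 CPM at 15 weeks in the extrasynaptic pieces, against 19.5 and 19.8 CPM in the perisynaptic pieces of the same animals. On the first principal component of the extrasynaptic libraries, which held 33.2% of the variance, SBMA libraries lay between -44.5 and -29.6 at 26 weeks and between -5.95 and 2.30 at 15 weeks, and controls between 15.7 and 27.1. The animals of each age have their own run of animal numbers and no run holds both ages, so age cannot be told apart from any difference between those runs. In bulk muscle, fewer cells of a type and less RNA per cell cannot be told apart.

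In SBMA muscle at 26 weeks 14 of 16 fast-fibre genes were lower than at 15 weeks, as were Mb (myoglobin), the NAD precursor kinase gene Nmrk2 and the lipase gene Lpl. The acetylcholine receptor subunit genes Chrna1 and Chrnb1, the perinatal myosin gene Myh8 and 11 of 17 heat shock genes were higher. The heat shock median was similar in controls (0.48 on the log2 scale, against 0.52 in SBMA). No heat shock gene was called as differing between genotypes in its age change. Of 15526 genes tested with edgeR's quasi-likelihood test, 1885 (12.1%) passed a Benjamini-Hochberg adjusted p of 0.05, and these are called below; 1012 were higher (6.52%) and 873 lower (5.62%) at 26 weeks. Counts of list members called in this comparison are read against these shares. The change was more than 2-fold in 168 of the higher and 154 of the lower genes. The median over all genes tested was -0.01 on the log2 scale, and each log2 fold change below is 26 over 15 weeks, given with its standard error. With total-count scaling in place of TMM, 1900 genes were higher and 444 lower, a share of 81.1% higher against 53.7%. The count was 1254, 1190 and 1131 without 26-week replicates 1, 2 and 3, and 1088 and 1143 without 15-week replicates 1 and 2, and 863 genes were called both in the full set and without each of the 8 libraries in turn.

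**Figure D1:**
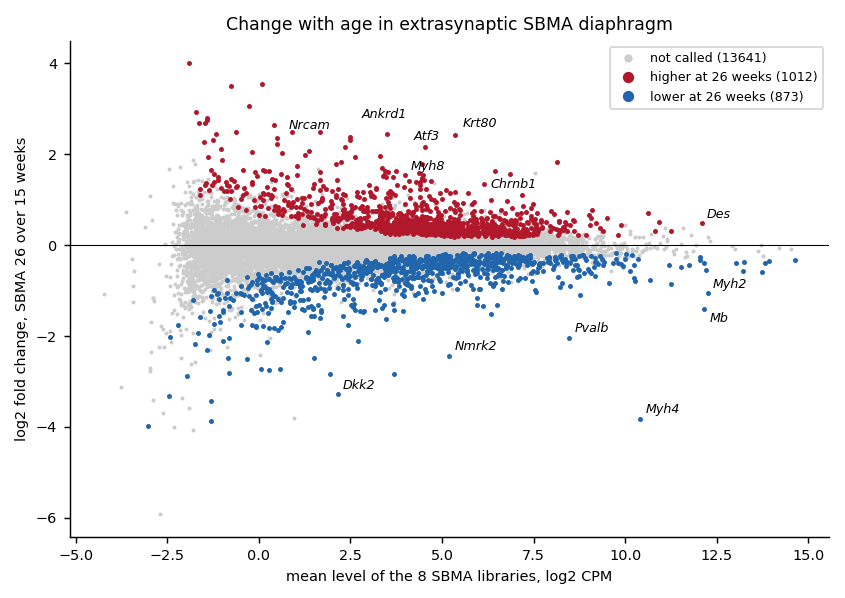
Mean level of each gene (x axis, log2 CPM) against its log2 fold change, 26 over 15 weeks, in SBMA extrasynaptic muscle (y axis); each point is a gene. Of 15526 genes, 1012 are called higher and 873 lower at 26 weeks, and 13641 are not called.

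Nrcam and Krt80 were among the 10 largest rises among genes above 2 CPM. The CPM of the ages did not overlap in 23.4% of all genes tested, 12.6% higher and 10.8% lower at 26 weeks, and statements on overlap are read against these shares. Nrcam, a neuronal cell adhesion gene of the immunoglobulin superfamily (ENSMUSG00000020598.16, chromosome 12, 44328885 to 44601964, plus strand, GRCm38 as in all positions here), had 8.96, 10.1, 10.2 and 8.61 CPM at 26 weeks, against 1.93, 1.74, 2.05 and 1.55 CPM at 15 weeks. The ages were far apart, and the log2 difference was 2.38 ± 0.21 (adjusted p = 1.24e-05). Krt80, a keratin gene (ENSMUSG00000037185.9, chromosome 15, 101347444 to 101370162, minus strand), had 93.4, 87.3, 58.1 and 39.0 CPM at 26 weeks, against 10.9, 8.53, 19.5 and 12.8 CPM at 15 weeks. Its log2 fold change was 2.42 ± 0.28 (adjusted p = 9.78e-05), again without overlap between the ages. Kif1a, which encodes a motor of axonal transport, had 7.28, 9.93, 9.34 and 6.74 CPM at 26 weeks, against 2.50, 2.03, 1.10 and 1.89 CPM at 15 weeks, a rise of 2.15 ± 0.28 on the log2 scale. The long noncoding RNA A930003A15Rik rose by 2.49 ± 0.28, the vesicular monoamine transporter gene Slc18a1 by 2.34 ± 0.39 and the long noncoding RNA Gm32849 by 2.22 ± 0.29. Gm44317 also rose (2.63 ± 0.29), but it lies antisense to Erc1, and the sources used here do not give the strand setting of the counting, so its reads cannot be told apart from those of Erc1.

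Ankrd1, Atf3 and Fosb were also among the 10 largest rises, and 1 animal weighed on Atf3 and Fosb. Ankrd1, a titin-binding repeat protein gene induced in stressed muscle, had 24.9, 10.6, 23.0 and 17.5 CPM at 26 weeks, against 2.01, 3.34, 3.64 and 5.02 CPM at 15 weeks. The ages did not overlap, and the log2 fold change was 2.43 ± 0.38 (adjusted p = 0.000861). Atf3, a stress-induced transcription factor gene, had 90.7, 24.4, 17.9 and 18.3 CPM at 26 weeks, against 6.33, 7.82, 10.1 and 9.47 CPM at 15 weeks. Its rise of 2.16 ± 0.42 on the log2 scale became 1.26, still called, without 26-week replicate 1. Fosb, an immediate early gene, had 8.29, 1.46, 0.674 and 2.19 CPM at 26 weeks, against 0.493, 0.782, 0.379 and 0.539 CPM at 15 weeks, values that overlap between the ages (log2 fold change 2.48 ± 0.67, adjusted p = 0.0250). Fosb stood at 1.36 with no call without 26-week replicate 1, and also lost the call without 15-week replicates 4, 1 and 3, at 2.47, 2.44 and 2.35. Of 24 immediate early genes tested, 3 rose and none fell (median 0.32; 5 rose without 26-week replicate 3 and 1 without 26-week replicate 1, 15-week replicate 1 or 15-week replicate 3).

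Peg3, an imprinted zinc finger gene, was chosen after its values were seen as the gene with the smallest adjusted p in the comparison. It had 185, 160.0, 183 and 164 CPM at 26 weeks, against 49.8, 56.2, 69.1 and 60.4 CPM at 15 weeks. The groups were tight and did not overlap, and the log2 difference was 1.56 ± 0.10 (adjusted p = 1.98e-06). Controls averaged 33.7 ± 2.61 CPM at 26 weeks (SD, n = 4) and 40.3 ± 5.45 CPM at 15 weeks (SD, n = 3).

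The 10 largest falls included Dkk2, Lgr6, Rmi2, Mdga1 and Sfrp5 beside muscle genes described below. Dkk2, a secreted Wnt modulator gene, had 0.799, 0.644, 0.835 and 1.03 CPM at 26 weeks, against 4.10, 10.7, 9.51 and 7.75 CPM at 15 weeks (log2 fold change -3.28 ± 0.53, adjusted p = 0.00111). Lgr6, a receptor for R-spondins, fell by 2.49 on the log2 scale, Rmi2, a subunit of a genome stability complex, by 2.75, and Mdga1, a membrane-anchored adhesion gene, by 2.11. Dkk2, Lgr6, Rmi2 and Mdga1 stayed called without each of the 8 libraries. Sfrp5, a secreted Wnt antagonist gene, had 0.547, 0.169, 0.289 and 0.579 CPM at 26 weeks, against 3.11, 5.33, 0.379 and 1.42 CPM at 15 weeks, values that overlap between the ages. Its log2 fold change of -2.72 ± 0.76 (adjusted p = 0.0301) lost the call without 26-week replicates 1, 2 and 3 (-2.92, -2.46 and -2.59) and without 15-week replicates 1 and 2 (-2.61 and -2.07).

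**Figure D2:**
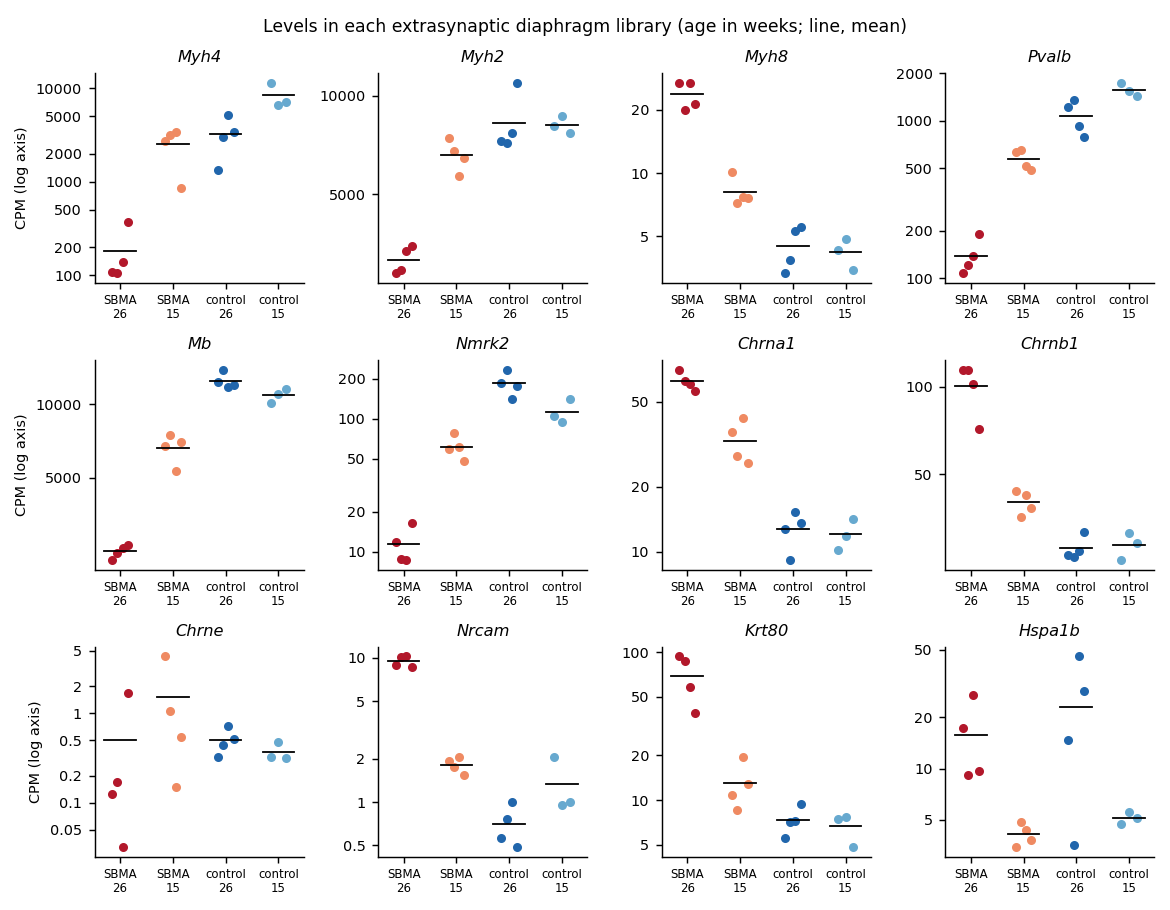
CPM (log axis) of 12 genes in each extrasynaptic library, by genotype and age in weeks; points are animals and lines are means. Chrna1, Chrnb1, Myh8, Nrcam, Krt80 and Hspa1b are higher in all 4 SBMA libraries at 26 weeks than in any at 15 weeks, Myh4, Myh2, Pvalb, Mb and Nmrk2 are lower, and Chrne overlaps between the ages.

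The muscle acetylcholine receptor is a pentamer of alpha, beta and delta subunits with an epsilon subunit in adults or a gamma subunit in embryos. Of 4 subunit genes tested 2 rose and 2 were not called, and Chrng, the gamma subunit gene, did not pass the filter on low counts. Chrna1, the alpha subunit gene (ENSMUSG00000027107.3, chromosome 2, 73563215 to 73580338, minus strand), had 70.5, 62.7, 60.2 and 56.3 CPM at 26 weeks, against 36.1, 27.9, 41.9 and 25.8 CPM at 15 weeks. Chrnb1, the beta subunit gene (ENSMUSG00000041189.9, chromosome 11, 69784036 to 69795943, minus strand), had 114, 114, 103 and 71.2 CPM at 26 weeks, against 43.8, 35.5, 42.2 and 38.2 CPM at 15 weeks. Neither gene overlapped between the ages: Chrna1 rose by 0.92 ± 0.16 (adjusted p = 0.00181) and Chrnb1 by 1.33 ± 0.13 (adjusted p = 3.44e-05) on the log2 scale. Chrnd, the delta subunit gene, had 2.57, 1.46, 2.66 and 4.43 CPM at 26 weeks, against 4.66, 2.06, 0.720 and 1.55 CPM at 15 weeks, and its fitted value of 0.30 ± 0.43 turned to -0.011 without 26-week replicate 4. Chrne had 0.126, 0.169, 0.0321 and 1.70 CPM at 26 weeks, against 4.32, 1.07, 0.152 and 0.539 CPM at 15 weeks. The ages overlapped widely, and the fitted value was -1.64 ± 0.88 (adjusted p = 0.244). The Chrne value rested on its highest libraries: it was -3.76 with an adjusted p of 0.0208 without 26-week replicate 4, -0.29 with an adjusted p of 0.870 without 15-week replicate 1, and -2.39 with an adjusted p of 0.0408 without both. Without both of these libraries 1300 genes were called over the whole table, of which 1127 were among the 1885.

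The sequences upstream of both receptor genes that rose are shown with those of Myh8 and Myh4, neighbouring myosin genes that moved in opposite directions. Capitals mark E-boxes, the kind of site that myogenic transcription factors bind, searched as CANNTG, which reads the same on both strands. Each window is the 250 bases before the gene's start in RefSeq (GRCm38.p6), 5′ to 3′ on the strand of the gene.
Chrna1 at chr2:73580339-73580588, minus strand: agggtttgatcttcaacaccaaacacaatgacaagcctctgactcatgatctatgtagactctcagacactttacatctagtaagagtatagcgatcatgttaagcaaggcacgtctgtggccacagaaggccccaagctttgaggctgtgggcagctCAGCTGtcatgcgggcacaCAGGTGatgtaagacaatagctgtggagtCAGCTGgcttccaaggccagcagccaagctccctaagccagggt
Chrnb1 at chr11:69795938-69796187, minus strand: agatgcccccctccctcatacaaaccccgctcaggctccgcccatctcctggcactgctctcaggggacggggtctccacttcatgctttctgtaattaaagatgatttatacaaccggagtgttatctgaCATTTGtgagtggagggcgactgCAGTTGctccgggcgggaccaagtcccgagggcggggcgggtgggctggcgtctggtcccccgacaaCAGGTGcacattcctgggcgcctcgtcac
Myh8 at chr11:67276874-67277123, plus strand: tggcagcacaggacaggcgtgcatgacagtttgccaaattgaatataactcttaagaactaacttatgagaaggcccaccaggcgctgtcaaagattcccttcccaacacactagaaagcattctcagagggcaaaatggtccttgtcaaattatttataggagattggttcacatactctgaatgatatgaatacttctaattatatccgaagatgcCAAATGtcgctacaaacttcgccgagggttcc
Myh4 at chr11:67237562-67237811, plus strand: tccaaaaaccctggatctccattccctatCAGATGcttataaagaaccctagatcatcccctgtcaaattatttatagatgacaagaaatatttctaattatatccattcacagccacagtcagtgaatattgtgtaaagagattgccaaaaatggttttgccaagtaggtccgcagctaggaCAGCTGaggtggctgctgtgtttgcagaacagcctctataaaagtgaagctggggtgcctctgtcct
Chrna1 and Chrnb1 each held 3 matches, Myh4 held 2 and Myh8 held 1. Of 32851 windows of this length, 66.2% held at least 1 match, 31.8% at least 2 and 12.2% at least 3. A match describes the letters, and binding was not tested.

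Of 13 tested genes that cluster and anchor the receptor none was called higher and 1 lower (median 0.12). The share called was 7.69%, beside 12.1% over all genes tested (6.52% higher and 5.62% lower). With total-count scaling 4 were higher and none lower, with no filter 4 were higher and 2 lower, with DESeq2 2 were higher and 2 lower, and in a fit of the 8 libraries alone 5 were higher and 1 lower. The lower gene was Agrn (-0.33 ± 0.084), whose product organises receptor clusters; no gene was called without 26-week replicate 3, without 15-week replicate 1 or without both libraries with high Chrne, and 2 were lower without 26-week replicate 4 and without 15-week replicate 3. Musk, the receptor kinase at the centre of clustering, had 95.4, 97.8, 83.6 and 77.0 CPM at 26 weeks, against 56.2, 48.4, 45.6 and 58.7 CPM at 15 weeks. These values did not overlap, yet the test gave 0.76 ± 0.28 (adjusted p = 0.0889); Musk was called with total-count scaling (0.85), with no filter on low counts (0.77) and in a fit of the 8 libraries alone (0.76). Colq, the collagen tail of acetylcholinesterase, stood at 0.53 ± 0.19 (adjusted p = 0.0758) and was called with DESeq2 (0.54), with total-count scaling (0.63), with no filter (0.54) and in a fit of the 8 libraries alone (0.54). Ache, the acetylcholinesterase gene, stood at -0.70 ± 0.25 (adjusted p = 0.0800), at -0.34 without 15-week replicate 1, and was called without 26-week replicate 4 (-0.86) and without 15-week replicate 3 (-0.87). None of 8 tested regulators of junctional nuclei was called (median 0.09), nor any of 7 tested markers of those nuclei. Of the markers, 2 were lower without 26-week replicate 4 and 1 without 15-week replicate 3. Their sum was 245 to 299 CPM at 26 weeks and 215 to 274 CPM at 15 weeks. Most of it came from Prkar1a, at 194 to 240 CPM at 26 weeks and 169 to 208 CPM at 15 weeks. The sum therefore does not measure the content of junctional nuclei. Lrfn5, one of those markers, had no count at 26 weeks and at most 0.0355 CPM at 15 weeks.

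Among 18 tested genes known to respond to denervation 4 rose and 2 fell (median 0.19; control median -0.14). Over all genes tested 6.52% were higher and 5.62% lower. The list median was 0.02 without 26-week replicate 3. With a single library left out 3 to 5 rose and 1 or 2 fell, and 6 rose with total-count scaling. In the full set the 4 risers were Ankrd1, Myh8, Ncam1 and Sln. Myh8, the perinatal myosin heavy chain gene (ENSMUSG00000055775.16, chromosome 11, 67277124 to 67308634, plus strand), had 26.8, 19.9, 26.9 and 21.4 CPM at 26 weeks, against 10.1, 7.21, 7.73 and 7.65 CPM at 15 weeks. Its log2 fold change was 1.54 ± 0.16 (adjusted p = 5.05e-05). Ncam1, an adhesion molecule that spreads over denervated fibres, had 36.1, 33.8, 29.8 and 21.3 CPM at 26 weeks, against 11.9, 10.1, 14.0 and 12.8 CPM at 15 weeks, a rise of 1.31 ± 0.18 (adjusted p = 0.000363). Neither gene overlapped between the ages, and Sln, the calcium pump inhibitor sarcolipin, rose by 0.47 ± 0.14. Dach2, a repressor known to fall in denervated muscle, had 9.30, 8.71, 9.73 and 10.8 CPM at 26 weeks, against 20.7, 23.3, 14.9 and 21.8 CPM at 15 weeks, a log2 fold change of -1.07 ± 0.21. Aqp4, the water channel gene of fast fibres, also fell (-0.76 ± 0.19). Myog, the myogenic factor that drives receptor genes after denervation, was not called (0.36 ± 0.19, adjusted p = 0.238). Runx1, a transcription factor gene induced by denervation, stood at 0.68 ± 0.22 (adjusted p = 0.0544) and was called with DESeq2 (0.69), with total-count scaling (0.77), with no filter (0.69), in a fit of the 8 libraries alone (0.68) and without 26-week replicate 4 (0.76).

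Of 15 tested genes of muscle atrophy none was called higher and 2 were lower (median 0.17). The share called was 13.3%, near the 12.1% over all genes tested (6.52% higher and 5.62% lower). The lower genes were the F-box genes Fbxo31 (-0.39 ± 0.068) and Fbxo40 (-0.38 ± 0.085); Fbxo40 lost the call without both libraries with high Chrne (-0.37). Trim63, the ubiquitin ligase MuRF1, had 393, 259, 261 and 352 CPM at 26 weeks, against 266, 339.9, 246 and 407 CPM at 15 weeks. Fbxo32, the ubiquitin ligase atrogin-1, had 446, 434, 526 and 443 CPM at 26 weeks, against 392, 409, 398 and 449.7 CPM at 15 weeks. Both overlapped between the ages, with fitted values of 0.01 ± 0.22 for Trim63 and 0.17 ± 0.13 for Fbxo32. The Trim63 value changed sign without 26-week replicates 1 and 4 (-0.11 and -0.05) and without 15-week replicates 1 and 3 (-0.06 and -0.09).

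The fast-fibre programme fell broadly. Of 16 fast-fibre genes none rose and 14 fell, beside 5.62% lower over all genes, and the list median was -0.46 in SBMA and -0.06 in controls. Myh4, the heavy chain gene of type 2B fibres (ENSMUSG00000057003.12, chromosome 11, 67238029 to 67260446, plus strand), had 109, 105, 138 and 368 CPM at 26 weeks, against 2729, 3193, 3367 and 857 CPM at 15 weeks. Its log2 fold change was -3.82 ± 0.52 (adjusted p = 0.000322), and the highest animal at 26 weeks was below the lowest at 15 weeks. Myh2, the heavy chain gene of type 2A fibres, had 2863, 2927, 3349.9 and 3463 CPM at 26 weeks, against 7422, 6773, 5695 and 6445 CPM at 15 weeks (log2 fold change -1.06 ± 0.13, adjusted p = 0.000129). Myh1, of type 2X fibres, had 10046, 9889, 12251 and 11632 CPM at 26 weeks, against 18594, 16646, 13122 and 17334 CPM at 15 weeks, a fall of 0.58 on the log2 scale. In each of these 3 myosins no value at 26 weeks reached the lowest at 15 weeks, a separation that 10.8% of all genes tested showed in this direction. Pvalb, the calcium buffer parvalbumin, had 107, 121, 138 and 190.1 CPM at 26 weeks, against 634, 653, 513 and 486 CPM at 15 weeks, a log2 fold change of -2.04 ± 0.19. The fast calcium pump gene Atp2a1 fell by 0.58, the calcium store gene Casq1 by 0.43, the Z disc gene Myoz1 by 0.70 and the muscle ribosomal protein gene Rpl3l by 0.45. Without 15-week replicate 1, and without both libraries with high Chrne, 9 of the 16 were lower, and 10 with total-count scaling.

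Slow-fibre genes moved both ways: of 12 tested 1 rose and 5 fell (median -0.20; control median -0.22). Tnni1, slow troponin I, had 39.2, 40.0, 58.4 and 70.9 CPM at 26 weeks, against 82.1, 127, 160.5 and 148 CPM at 15 weeks, a log2 fold change of -1.31 ± 0.23. The slow tropomyosin gene Tpm3 fell by 0.92 and the slow light chain gene Myl3 by 0.85. Myh7, the slow heavy chain gene, had 644, 818, 1042 and 1083 CPM at 26 weeks, against 1076, 1490.2, 1825 and 1807 CPM at 15 weeks, values that overlap between the ages. Its log2 fold change of -0.79 ± 0.22 (adjusted p = 0.0294) lost the call without 26-week replicates 1 and 2 (-0.66 and -0.75) and without 15-week replicates 4, 2 and 3 (-0.71, -0.81 and -0.70). Casq2, the calcium store gene of slow and cardiac muscle, was the member that rose, with 606, 623, 691 and 653 CPM at 26 weeks, against 413, 434, 428 and 416 CPM at 15 weeks (0.60 ± 0.099).

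The long noncoding RNA 2310065F04Rik (ENSMUSG00000087410.7, chromosome 11, 67112461 to 67120080, minus strand) lies in the cluster of skeletal myosin genes on chromosome 11. It had 2.15, 3.29, 4.08 and 3.14 CPM at 26 weeks, against 23.8, 35.9, 9.28 and 22.5 CPM at 15 weeks. Without overlap between the ages, its log2 fold change was -2.84 ± 0.32 (adjusted p = 8.43e-05). Controls averaged 112 ± 15.6 CPM at 26 weeks (SD, n = 4) and 112 ± 25.3 CPM at 15 weeks (SD, n = 3).

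Genes of the sarcomere lattice moved both ways. Of 24 Z disc, M band and titin genes 6 rose and 2 fell (median 0.01). Des, the intermediate filament desmin that links Z discs, had 5378, 5099, 5300.5 and 4424 CPM at 26 weeks, against 3669, 3365, 3893 and 3558 CPM at 15 weeks, a log2 fold change of 0.48 ± 0.083. Flnc, the actin cross-linker filamin C, had 2287, 1671, 2075 and 1808 CPM at 26 weeks, against 1129, 1162, 1305 and 1196 CPM at 15 weeks, a rise of 0.71 ± 0.13. The M band gene Myom3 rose by 0.59 ± 0.13, whereas Tcap, the cap of titin, fell by 0.78 on the log2 scale. Without 26-week replicate 1 or 3, or 15-week replicate 4, 1 or 2, 3 rose and 2 fell, and without both libraries with high Chrne 3 rose and 1 fell.

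Calcium release and excitability genes also went both ways. Of 23 triad genes 1 rose and 4 fell; the list median of -0.06 became 0.03 with total-count scaling, with 4 higher and 4 lower. Ryr3, a minor ryanodine receptor of developing muscle, had 26.3, 27.2, 29.5 and 34.5 CPM at 26 weeks, against 13.7, 10.4, 11.9 and 14.5 CPM at 15 weeks, a log2 fold change of 1.22 ± 0.18. The main release channel gene Ryr1 (-0.24 ± 0.15) and its voltage sensor gene Cacna1s (-0.27 ± 0.090) were not called. Jph2, which tethers the sarcoplasmic reticulum to the surface membrane, fell by 0.46, the calcium-binding gene Hrc by 0.30 and the kinase gene Camk2a by 0.31. Cacna1s was called with DESeq2 (-0.27) and in a fit of the 8 libraries alone (-0.27). Of 16 excitability genes 2 rose and 6 fell (median -0.20). Kcna7, a potassium channel gene, had 46.1, 48.1, 46.0 and 35.1 CPM at 26 weeks, against 85.8, 81.9, 89.4 and 88.1 CPM at 15 weeks, a log2 fold change of -0.98 ± 0.10. The chloride channel gene Clcn1, which steadies the resting membrane, fell by 0.39. Kcnj3, an inward rectifier gene of heart and neurons, had 22.4, 20.4, 17.9 and 13.6 CPM at 26 weeks, against 6.90, 6.40, 5.23 and 7.79 CPM at 15 weeks and rose by 1.49 ± 0.19.

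**Figure D3:**
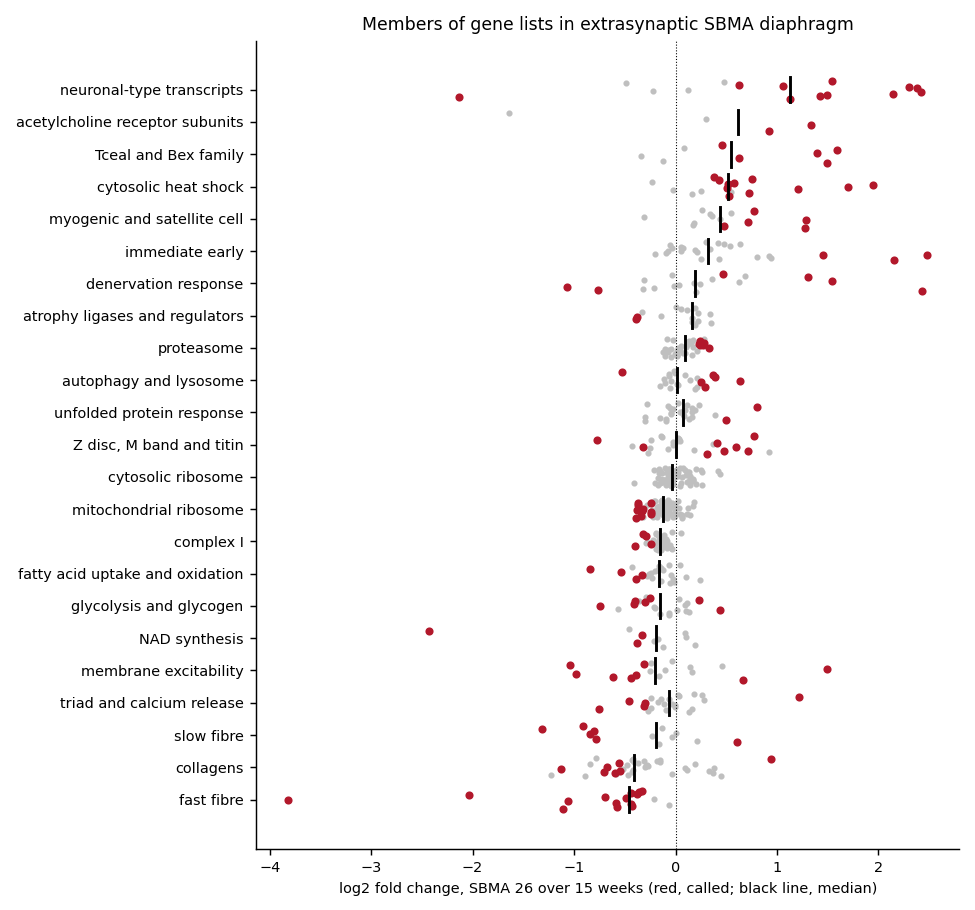
Log2 fold change, 26 over 15 weeks in SBMA extrasynaptic muscle (x axis), of each tested member of 23 gene lists; red points are called genes, other points are not, and black marks are list medians. The fast-fibre median lies at -0.46, the heat shock median at 0.52 and the cytosolic ribosome median at -0.04. The median of the neuronal-type transcripts is 1.13, in a list partly chosen from these samples.

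Mb, Nmrk2 and Lpl fell, while most members of the metabolic lists were not called. Mb, myoglobin (ENSMUSG00000018893.15, chromosome 15, 77015487 to 77050670, minus strand), had 2292, 2458, 2569.8 and 2638 CPM at 26 weeks, against 6747, 7443, 5317 and 6990.1 CPM at 15 weeks. Its log2 fold change was -1.41 ± 0.099 (adjusted p = 2.19e-06). Nmrk2, the muscle kinase that turns nicotinamide riboside into an NAD precursor, had 11.8, 8.91, 8.67 and 16.5 CPM at 26 weeks, against 59.0, 77.8, 61.3 and 48.1 CPM at 15 weeks (log2 fold change -2.43 ± 0.22, adjusted p = 1.56e-05). Neither gene overlapped between the ages. Of 10 NAD synthesis genes none rose and 3 fell (median -0.19), with the salvage enzyme gene Nampt at -0.38 ± 0.068. Lpl, the lipase that frees fatty acids from lipoproteins, had 1551, 1706, 1912 and 1812 CPM at 26 weeks, against 3082, 3443, 2842 and 3199 CPM at 15 weeks, a log2 fold change of -0.85 ± 0.090.

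Over all genes tested 5.62% were lower, and the counts of the mitochondrial lists moved with the processing. Of 23 fatty acid genes none rose and 4 fell, among them Lpl and the carrier gene Fabp3 (-0.54 ± 0.12); 2 fell without 26-week replicate 1, 2 or 3 or 15-week replicate 4, 2 or 3, and 7 without 26-week replicate 4. In a fit of the 8 libraries alone 1 fatty acid gene rose and 6 fell, and with total-count scaling 1 rose and 2 fell. Of 36 complex I genes none rose and 4 fell (median -0.15; control median 0.12), 2 without 26-week replicate 1 or 15-week replicate 1, 1 without both libraries with high Chrne, none with total-count scaling, 2 with no filter and 18 in a fit of the 8 libraries alone. Ndufa9, a complex I subunit (-0.24 ± 0.056), lost the call with total-count scaling (-0.15) and with no filter (-0.23). Of 41 genes of complexes II to V 1 rose and 2 fell (median -0.11), a lower share than over all genes; 5 fell with DESeq2, 1 with no filter or with total-count scaling, and 13 in a fit of the 8 libraries alone, where 2 rose. In that list Cox8a, a complex IV subunit, rose by 0.60 ± 0.10, and Uqcrc1, of complex III, fell by 0.39. Of 19 tricarboxylic acid cycle genes none rose and 5 fell (median -0.11), 2 or 3 without any single library, none with total-count scaling or without both libraries with high Chrne, 1 with no filter and 9 in a fit of the 8 libraries alone.

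Some genes of the mitochondrial ribosome, which makes the proteins encoded in mitochondrial DNA, fell. Of 77 mitochondrial ribosome genes none rose and 11 fell (median -0.12), among them Mrpl1 (-0.39 ± 0.058), Mrpl18 (-0.34 ± 0.067), Mrpl35 (-0.34 ± 0.072) and Mrpl42 (-0.33 ± 0.064). The number was 7 without 26-week replicate 1 or 15-week replicate 1 or 2, 6 without 26-week replicate 3, 5 with total-count scaling and 3 without both libraries with high Chrne, where Mrpl42 (-0.27) and Mrpl35 (-0.30) lost the call. Of 72 cytosolic ribosome genes none was called, and the list median of -0.04 became 0.06 with total-count scaling. Ppargc1b, a coactivator of mitochondrial genes, was the 1 gene called of 16 oxidative regulators (-0.80 ± 0.20), and it lost the call without 15-week replicate 2 (-0.65) and without both libraries with high Chrne (-0.76). Of those regulators 1 was also higher without 26-week replicate 3 and without 26-week replicate 4. Of 21 glycolysis and glycogen genes 2 rose and 5 fell (median -0.16), with the isomerase gene Gpi1 at 0.44 ± 0.081, the phosphorylase kinase subunit gene Phkg1 at -0.39 ± 0.076 and the regulator gene Pfkfb1 at -0.74 ± 0.16. In that list 1 rose and 3 fell without 26-week replicate 1, 2 or 3, without 15-week replicate 1 or 2 and without both libraries with high Chrne.

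Heat shock proteins fold and refold other proteins under stress. Of 17 cytosolic heat shock genes 11 rose and none fell (median 0.52), and the control median was 0.48 although no control gene was called. Hsp90aa1, the inducible heat shock protein 90, had 46.9, 41.0, 62.8 and 41.6 CPM at 26 weeks, against 22.3, 19.5, 20.9 and 20.7 CPM at 15 weeks, a log2 fold change of 1.21 ± 0.24. In controls Hsp90aa1 had 36.9, 21.5, 52.6 and 61.5 CPM at 26 weeks, against 13.9, 18.0 and 16.6 CPM at 15 weeks, a fitted value of 1.42 ± 0.26. Hsp90ab1, its constitutive relative, rose by 0.51 ± 0.100, the co-chaperone gene Bag3 by 0.52 ± 0.11 and the small heat shock gene Hspb8 by 0.43 ± 0.070. The number of heat shock genes that rose was 5 without 26-week replicate 3 and 6 without 15-week replicate 2. The test of the difference between genotypes called none of the 17.

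Hspa1b, an inducible heat shock protein 70 gene (ENSMUSG00000090877.3, chromosome 17, 34956436 to 34959238, minus strand), had 17.4, 9.22, 27.0 and 9.72 CPM at 26 weeks, against 3.45, 4.83, 4.32 and 3.81 CPM at 15 weeks. The ages did not overlap, and the log2 difference was 1.95 ± 0.54 (adjusted p = 0.0280). The near-identical neighbour Hspa1a can share its reads, so the division between them is uncertain. The call was lost without 26-week replicates 1 and 3 (1.90 and 1.56), without 15-week replicates 4, 1, 2 and 3 (1.91, 1.88, 2.04 and 1.97) and without both libraries with high Chrne (2.07). In controls Hspa1b had 14.6, 3.53, 45.7 and 28.7 CPM at 26 weeks, against 4.71, 5.53 and 5.08 CPM at 15 weeks. The 250 bases before its RefSeq start are shown (GRCm38.p6, 5′ to 3′ on the strand of the gene), since heat shock factor binds inverted repeats of this kind; capitals mark GAANNTTC or TTCNNGAA, each of which reads the same on both strands, and 12.8% of 32851 windows held at least 1 match.
Hspa1b at chr17:34959239-34959488, minus strand: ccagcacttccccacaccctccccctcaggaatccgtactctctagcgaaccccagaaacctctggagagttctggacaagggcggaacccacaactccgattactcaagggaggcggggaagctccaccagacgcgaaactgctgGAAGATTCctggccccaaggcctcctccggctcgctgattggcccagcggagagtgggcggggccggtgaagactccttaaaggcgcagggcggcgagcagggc

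Most proteasome, autophagy and unfolded protein response genes were not called, and the called members named here changed less than Hspa1b and Hsp90aa1. Over all genes tested 6.52% were higher and 5.62% lower. Of 37 proteasome genes 6 rose and none fell (median 0.10), with Psmc1 at 0.33 ± 0.079 and Psmd13 at 0.29 ± 0.067. The number was 2 without 26-week replicate 1 or 3 or 15-week replicate 1, 3 without 15-week replicate 4 or 2 or without both libraries with high Chrne, and 12 with total-count scaling. Of 22 autophagy and lysosome genes 5 rose and 1 fell (median 0.02). Gabarapl1 (0.63 ± 0.097), Map1lc3a (0.39 ± 0.081) and Becn1 (0.29 ± 0.061), which act in autophagosome formation, rose, while the initiating kinase gene Ulk1 fell (-0.53 ± 0.11). Of 27 unfolded protein response genes 2 rose (7.41%, near the share over all genes) and none fell (median 0.07, control median 0.31). Among the risers was Ppp1r15a (0.81 ± 0.15), whose product ends the stress block on translation. Only 1 rose without 15-week replicate 1 or 2 and without both libraries with high Chrne.

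Of 15 tested transcripts listed here as neuronal-type, 10 rose and 1 fell (median 1.13; control median 0.15). Part of that list was chosen from these samples, so its direction is not independent evidence, and members such as Krt80 and Prr32 are not neuronal genes. Igsf1, a membrane glycoprotein gene best known in the pituitary, had 31.0, 25.9, 35.6 and 40.4 CPM at 26 weeks, against 11.2, 14.4, 13.8 and 10.2 CPM at 15 weeks, a log2 fold change of 1.42 ± 0.15. Prr32, a proline-rich protein gene, had 8.92, 12.4, 10.3 and 5.79 CPM at 26 weeks, against 2.31, 2.56, 1.29 and 1.42 CPM at 15 weeks, a log2 fold change of 2.30 ± 0.29. Neither overlapped between the ages, and the member that fell was Gap43, a growth cone gene (-2.13 ± 0.58). No member of the list was lower with a replicate block or without 26-week replicate 2 or 3 or 15-week replicate 4 or 3. The number that rose was 8 with a replicate block, 9 without 15-week replicate 3 and 10 without 26-week replicate 4. It was 8 without any other single library. Of 8 tested genes of the Tceal and Bex family, small X-linked genes, 5 rose and none fell (median 0.54; control median -0.14): Tceal7 rose by 1.59 ± 0.21, Bex1 by 1.49 ± 0.20, Tceal5 by 1.39 ± 0.17 and Tceal9 by 0.46 ± 0.085. This family was listed with earlier results of these data known, so its count is not independent evidence either.

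Of 12 androgen and polyamine genes 2 rose and 2 fell; the list median of -0.04 became 0.05 with total-count scaling. Igf1, a muscle growth factor gene, had 26.2, 18.5, 19.2 and 25.7 CPM at 26 weeks, against 37.8, 38.2, 34.7 and 30.9 CPM at 15 weeks, a log2 fold change of -0.66 ± 0.14. Igf1 was the 1 gene called of 9 tested trophic factors (11.1%, near the 12.1% over all genes tested), of which 2 were lower without 15-week replicate 3. Vegfa, the vascular growth factor gene, stood at -0.35 ± 0.15 (adjusted p = 0.145), and Gdnf did not pass the filter.

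Collagens, the main proteins of the muscle matrix, moved both ways. Of 37 collagen genes 1 rose and 6 fell (median -0.41; control median -0.16). Col1a1, the main fibrillar collagen gene, had 252, 186, 191 and 244 CPM at 26 weeks, against 355, 401, 335 and 333 CPM at 15 weeks, a log2 fold change of -0.71 ± 0.18 that lost the call without 26-week replicates 2 and 3 (-0.64 and -0.65) and without 15-week replicate 2 (-0.65). The number that fell was none without 26-week replicate 2, 1 without 26-week replicate 3, 3 without 15-week replicate 4 and 2 without 15-week replicate 1, without 15-week replicate 2 or without both libraries with high Chrne. Col7a1, the collagen of anchoring fibrils, rose by 0.94 ± 0.19. None of 11 laminin and basal lamina genes was called (median -0.09), and 1 was lower without 26-week replicate 4. None of 18 clock genes and none of 5 ribosomal RNA-like features was called.

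Counts in other lists also moved with the processing. In a fit of the 8 libraries alone, which called 2927 genes (1606 higher and 1321 lower), 21 mitochondrial ribosome genes and 15 collagens were lower. In the same fit 10 glycolysis and glycogen genes were lower, 10 proteasome genes and 5 androgen and polyamine genes were higher, 4 triad genes were higher and 5 lower, and 9 Z disc, M band and titin genes were higher and 4 lower. DESeq2 called 10 collagens lower. With no filter 9 collagens and 7 mitochondrial ribosome genes were lower and 2 proteasome genes higher. With total-count scaling 3 collagens and 2 glycolysis and glycogen genes were lower, and 8 autophagy and lysosome genes were higher.

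**Figure D4:**
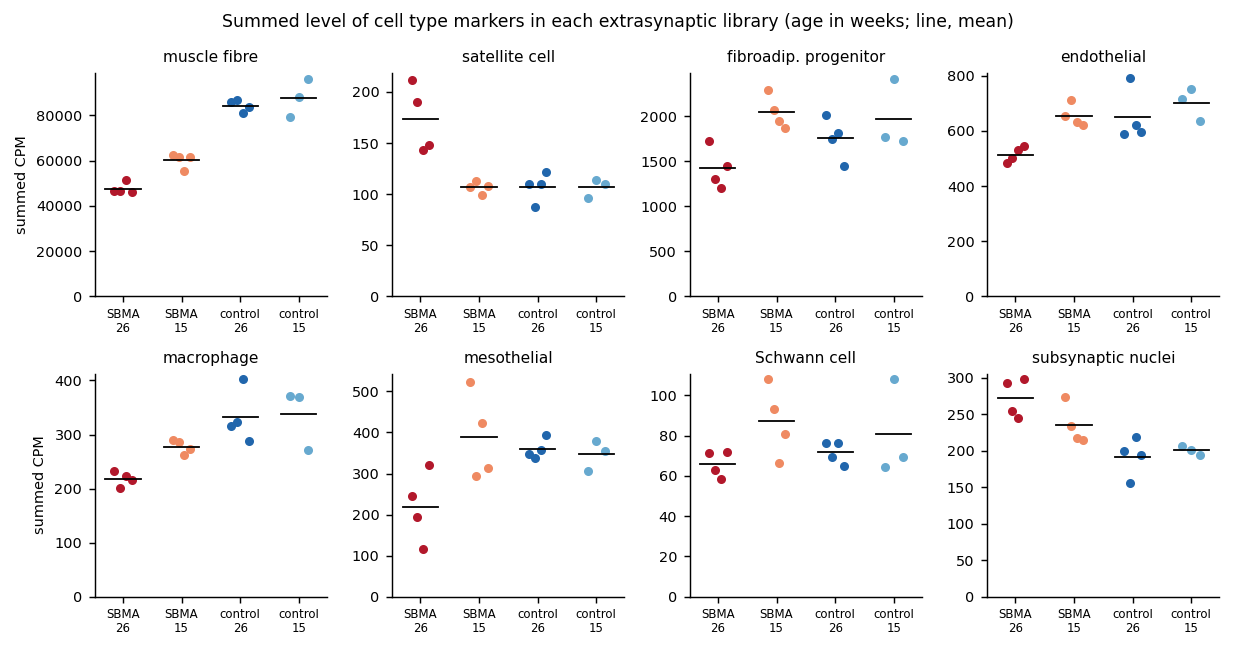
Summed CPM of the marker genes of cell types in each extrasynaptic library (y axis), by genotype and age in weeks; points are animals and lines are means. Muscle fibre and macrophage sums are lower, and satellite cell sums higher, in all 4 SBMA libraries at 26 weeks than in any at 15 weeks. In the SBMA libraries most of the subsynaptic nuclei sum is Prkar1a and most of the satellite cell sum is Sdc4.

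Markers of other cell types moved with age too, and their part in the gene results was not tested. Satellite cells are the stem cells of muscle. Their 6 markers summed to 143 to 212 CPM at 26 weeks, against 99.2 to 112 CPM at 15 weeks, with 4 higher and none lower. Most of the sum was Sdc4, at 94.0 to 154 CPM at 26 weeks and 66.1 to 74.9 CPM at 15 weeks. Pax7 (5.54 to 9.93 CPM at 26 weeks, 4.65 to 6.18 CPM at 15 weeks) and Vcam1 overlapped between the ages. Myf5, Calcr, Cdh15 and Sdc4 did not. Myf5, a myogenic factor of satellite cells, had 6.39, 5.08, 4.43 and 3.31 CPM at 26 weeks, against 2.24, 1.42, 2.01 and 2.19 CPM at 15 weeks, a log2 fold change of 1.29 ± 0.21. The proteoglycan gene Sdc4 rose by 0.78 ± 0.16. Without 26-week replicate 1 or 15-week replicate 1, 2 of the 6 were called. Of 13 tested myogenic genes 5 rose and none fell, 2 without 26-week replicate 1 or 15-week replicate 1 and 3 without 26-week replicate 2.

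Muscle fibre markers had 1 higher and 6 lower of 9, with 3 lower without 15-week replicate 1, without both libraries with high Chrne or with total-count scaling. Macrophage markers summed to 201 to 233 CPM at 26 weeks and 262 to 289 CPM at 15 weeks, with 2 of 10 lower, with none lower without 26-week replicate 2 or 3 or 15-week replicate 4, 1 or 2 or with total-count scaling, 1 without 26-week replicate 1 or 4, and 4 in a fit of the 8 libraries alone. Endothelial markers summed to 482 to 546 CPM at 26 weeks and 620 to 713 CPM at 15 weeks, with 1 of 8 lower, 1 without 26-week replicate 4 and none without any other single library; 2 were lower with DESeq2, 3 with no filter or in a fit of the 8 libraries alone and none with total-count scaling. These sums did not overlap between the ages although few genes were called. Fibroadipogenic progenitors, the connective tissue cells of muscle, had marker sums of 1208 to 1728 CPM at 26 weeks and 1875 to 2294 CPM at 15 weeks, with 2 of 8 lower, both of them collagens; none was lower without 26-week replicate 2 or 3 or 15-week replicate 2, 1 without 15-week replicate 4 or 1 or with total-count scaling, 4 with no filter or in a fit of the 8 libraries alone, and 5 with DESeq2. Smooth muscle and pericyte markers summed to 540 to 612 CPM at 26 weeks and 621 to 690 CPM at 15 weeks, with none of 8 called.

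The markers of lining, nerve and fat varied between animals. Mesothelial markers, of the lining of the diaphragm, summed to 115 to 322 CPM at 26 weeks and 295 to 523 CPM at 15 weeks, ranges that overlap, with 5 of 7 lower. The number was none without 15-week replicate 1, 1 without 26-week replicate 1 or 2, 2 without 26-week replicate 3 or 15-week replicate 4 or 3, 3 without 15-week replicate 2, 2 with total-count scaling and 1 in a fit of the 8 libraries alone; Krt19 (-1.06 ± 0.25) lost the call without 15-week replicate 1 (-0.84). All 7 mesothelial markers were lower with DESeq2, with no filter and without 26-week replicate 4. Schwann cell markers summed to 58.3 to 71.9 CPM at 26 weeks and 66.5 to 108 CPM at 15 weeks, with 3 of 7 tested lower, none without 26-week replicate 3 or 15-week replicate 2, 1 without 26-week replicate 2 or 15-week replicate 1 and 4 without 15-week replicate 3. Prx, a myelin gene, fell by 1.35 and lost the call without 26-week replicate 3 (-1.20) and 15-week replicate 2 (-1.11).

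Adipocyte markers summed to 282 to 801 CPM at 26 weeks and 282 to 592 CPM at 15 weeks, with none of 8 called (median 0.86). Of the pair of brown fat markers Cidea, a lipid droplet gene, rose by 0.91 ± 0.20 and lost the call without both libraries with high Chrne (0.67), while Ucp1, the defining gene, lay between 0 and 0.0421 CPM at 26 weeks and between 0 and 0.0379 CPM at 15 weeks. Tendon markers summed to 127 to 200.4 CPM at 26 weeks and 196 to 272 CPM at 15 weeks, with 1 of 6 lower, 1 without 26-week replicate 1 and none without any other single library; 2 were lower with no filter or in a fit of the 8 libraries alone and none with total-count scaling. Red cell markers summed to 140.0 to 256 CPM at 26 weeks and 154 to 604 CPM at 15 weeks, with none of 6 called and 2 lower without 15-week replicate 3. T and B cell markers summed to 1.24 to 1.57 CPM at 26 weeks and 1.97 to 3.91 CPM at 15 weeks, with none of 4 tested called.

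The same age comparison in the muscle-rescued controls sets the SBMA change beside that of age in rescued muscle. No gene was called in controls with edgeR (0%), where 1036 had an unadjusted p under 0.05; DESeq2 called 51, 30 higher and 21 lower. With no filter on low counts 33 genes were called, 11 with total-count scaling, 18 without control 26-week replicate 2 and 1 without control 15-week replicate 3. The difference between the SBMA and the control age change was tested for each gene and called 268 (1.73%), 157 more positive and 111 more negative in SBMA. Of the 1885 genes called in SBMA, 260 (13.8%) were also called in this test. For all 260 the difference had the sign of the SBMA change. The SBMA values enter both comparisons, so neither this overlap nor the shared sign is independent. The count of 268 was 117 without SBMA 15-week replicate 1 and lay between 137 and 173 without SBMA 15-week replicates 4 or 2, SBMA 26-week replicates 1, 2 or 3, control 26-week replicate 1 or control 15-week replicate 2; it was 649 with DESeq2.

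Mb, Nmrk2 and 4 of the 16 fast-fibre genes were among the genes whose age change differed between genotypes. Mb had 12278, 13863, 11747 and 11993 CPM at 26 weeks, against 10147, 10986 and 11582 CPM at 15 weeks in controls, and its SBMA change less its control change was -1.61 ± 0.15 (adjusted p = 7.8e-05). Nmrk2 had 187, 234, 142 and 176 CPM at 26 weeks, against 104, 94.1 and 142 CPM at 15 weeks in controls. Its control values were thus no lower at 26 weeks, and the difference was -3.13 ± 0.31 (adjusted p = 0.000152). Pvalb differed by -1.49 ± 0.27, Myh2 by -1.08 ± 0.19, Lpl by -0.96 ± 0.13 and 2310065F04Rik by -2.83 ± 0.44. Myh4 did not pass this test (-2.44 ± 0.71, adjusted p = 0.100), and it had 1351, 3004, 5176 and 3401 CPM at 26 weeks, against 11436, 6617 and 7079.9 CPM at 15 weeks in controls, a fitted value of -1.37 ± 0.50.

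Some of the genes that rose also differed between genotypes. Nrcam had 0.565, 0.759, 1.00 and 0.488 CPM at 26 weeks, against 2.05, 0.951 and 1.01 CPM at 15 weeks in controls, and the difference was 3.34 ± 0.35 (adjusted p = 0.000190). Chrnb1 had 26.3, 25.9, 27.2 and 31.6 CPM at 26 weeks, against 25.3, 31.4 and 29.0 CPM at 15 weeks in controls, a difference of 1.37 ± 0.19 (adjusted p = 0.00309). Chrna1 had 12.7, 9.11, 15.4 and 13.6 CPM at 26 weeks, against 10.2, 11.8 and 14.2 CPM at 15 weeks in controls, and its difference of 0.85 ± 0.25 was not called (adjusted p = 0.101). The control levels of both receptor genes lay below every SBMA library at either age. Peg3 differed by 1.82 ± 0.15, with the smallest adjusted p among the genes named here (4.85e-05), Traf3ip3 by 2.22 ± 0.22, Kif1a by 2.47 ± 0.50, Krt80 by 2.27 ± 0.43, Myh8 by 1.43 ± 0.25 and Ncam1 by 1.38 ± 0.27. Of the lists, 4 of 16 fast-fibre genes and 3 of 77 mitochondrial ribosome genes were called more negative in SBMA, beside 0.715% of all genes tested. More positive were 4 of 15 neuronal-type transcripts and 4 of 8 Tceal and Bex genes, beside 1.01% of all genes. Part of the neuronal-type list was chosen from these samples, and the other lists were chosen with earlier results of these data known. None of these list counts is independent evidence. Prr32 did not differ detectably (-0.05 ± 0.41, adjusted p = 0.973).

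**Figure D5:**
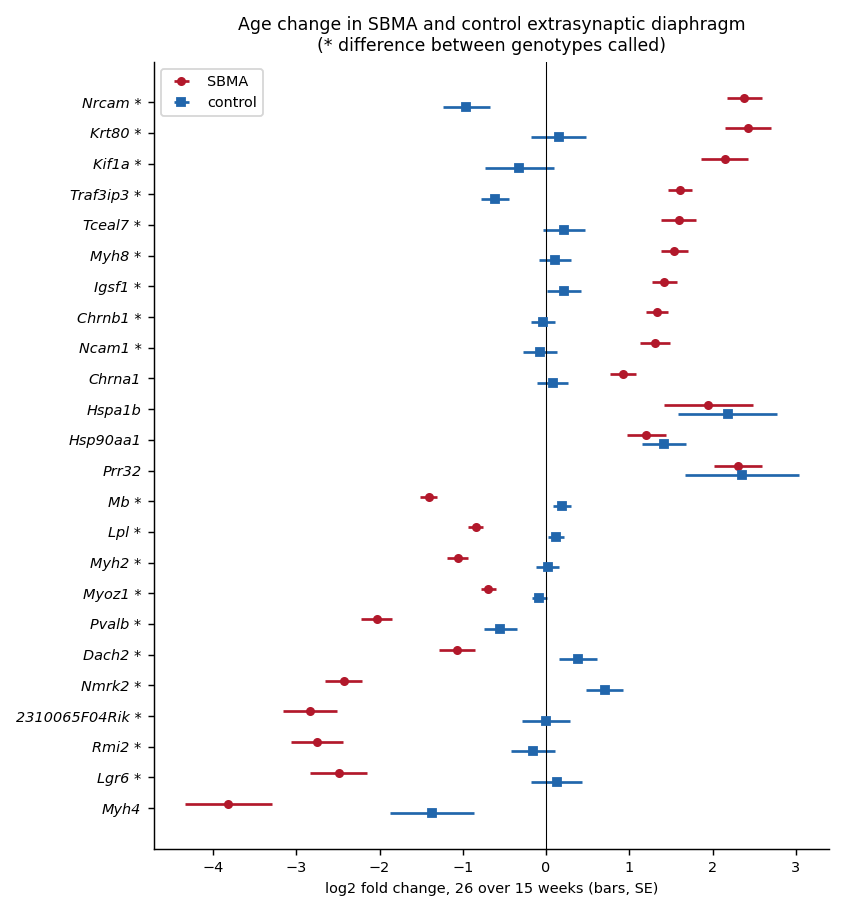
Log2 fold change, 26 over 15 weeks, with its standard error, of 24 genes in SBMA and in control extrasynaptic muscle; an asterisk marks genes whose age change differed between genotypes. Nmrk2 lies at -2.43 in SBMA and at 0.70 in controls, while Hspa1b lies at 1.95 in SBMA and at 2.18 in controls.

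The perisynaptic pieces of the same SBMA animals show whether the change was also present beside the junctions. Of 15735 genes tested there 621 (3.95%) were called, 369 higher (2.35%) and 252 lower (1.6%) at 26 weeks. Of the 1885 extrasynaptic calls, 531 (28.2%) were also called in the perisynaptic pieces in the same direction, and none in the opposite one. The pieces come from the same animals, so this is not a repeat in other mice. Myh4 stood at -4.19 ± 0.35 in the perisynaptic pieces, Nmrk2 at -2.67 ± 0.30, Mb at -1.43 ± 0.15, Krt80 at 2.49 ± 0.30 and Myh8 at 1.96 ± 0.26, all called. Chrnb1 (1.19 ± 0.14) and Chrna1 (0.59 ± 0.15, adjusted p = 0.0402) were called higher there too. By list, 7 of 16 fast-fibre genes fell, and of 77 mitochondrial ribosome genes none was called. Of 15 neuronal-type transcripts 9 rose, as did 4 of 8 Tceal and Bex genes and 2 of 17 heat shock genes. The neuronal-type list was partly chosen from these samples, and the other lists were chosen with earlier results of these data known. None of these list counts is independent evidence. The count of 621 lay between 344 and 384 without 26-week replicate 1 or 2 or 15-week replicate 4, 1 or 2, and total-count scaling gave 1178 higher and 158 lower.

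The difference between the regions in their age change was tested in all 30 libraries with a term for the animal. None of 16138 genes was called (0%) with edgeR or with DESeq2, 663 had an unadjusted p under 0.05, and 146 were called with no filter on low counts. Sfrp5 had the largest such value among the genes named here, -2.98 ± 0.85 (adjusted p = 0.864), and did not pass the test. Genes called in the extrasynaptic pieces and not in the perisynaptic pieces are therefore not shown to differ between regions.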

How the data were processed

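The 30 libraries come from 15 animals, 2 pieces of diaphragm each. The deposited table holds whole-number counts per gene for 33076 genes; the authors counted reads with featureCounts on mm10, per the submitters' processing notes, from stranded mRNA libraries, per the labels' protocols. The sources used here name no aligner, no release of gene models and no strand option. Positions are those of GENCODE vM21 (GRCm38), joined by gene identifier.

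Genes were kept with filterByExpr (minimum count 10, minimum total 15), scaled by TMM and tested with edgeR 4.0.16 (quasi-likelihood test, R 4.3.3) in 1 fit of the 15 extrasynaptic libraries with 1 mean per genotype and age (11 residual degrees of freedom). The region test used all 30 libraries with an animal term. P-values were adjusted by Benjamini-Hochberg over all genes tested, and a standard error is the log2 fold change divided by the square root of F. DESeq2 1.42.0, other scaling, no filter, a replicate block, other sets of libraries and each library left out were the alternatives. The steps were tested on simulated data. Depth was 21160671 to 29444206 counts in the 8 SBMA extrasynaptic libraries.

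Members and gene lists were chosen with earlier results of these data known. The text names a selection of the 10 largest called changes each way above 2 CPM, up to 4 called members of each of 48 lists, a set of fixed genes, and the largest differences between genotypes. Peg3, Agrn, Sln, Aqp4, Gap43, Prkar1a, Pax7, Vcam1, Calcr and Cdh15, and the markers at or near 0, were named after their values were seen. Some results are not reported here.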

Additional observations from a re-analysis of the deposited data

Results flagged for a closer look

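In 13 of 248 groups of 4 libraries checked, 1 library stood apart from the other 3 by Dixon's 95% criterion, a pattern that chance gives in about 1 in 20 groups. In 26-week SBMA replicate 1, Gm44317 was at 3.20 CPM (1.90 to 2.03 in the others), Atf3 at 90.7 CPM (17.9 to 24.4) and the tendon marker sum at 200.4 CPM (127 to 133). In 26-week replicate 3, Mdga1 was at 3.47 CPM (2.07 to 2.19), Fbxo32 at 526 CPM (434 to 446) and the muscle fibre sum at 51237 CPM (46251 to 46709). In 26-week replicate 4, Myh4 was at 368 CPM (105 to 138), Chrne at 1.70 CPM (0.0321 to 0.169), Kcna7 at 35.1 CPM (46.0 to 48.1) and the smooth muscle and pericyte sum at 539.8 CPM (604 to 612). At 15 weeks, Bag3 was at 297 CPM in replicate 1 (321 to 325), Hrc at 1195 CPM in replicate 2 (1093 to 1103) and Gabarapl1 at 153 CPM in replicate 4 (129 to 132).

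For 35 named genes the SBMA age change differed from the control age change in edgeR's test of the difference itself, with adjusted p under 0.05. The values are SBMA minus control on the log2 scale. More positive in SBMA were Chrnb1 (1.37), Ncam1 (1.38), Nrcam (3.34) and Kif1a (2.47), and so were Krt80 (2.27), Igsf1 (1.21), Myh8 (1.43), Ryr3 (1.65), Ppp1r15a (0.96), Traf3ip3 (2.22), A930003A15Rik (3.01), Tceal5 (1.59), Tceal7 (1.37), Tceal9 (0.55), Bex1 (1.71) and Peg3 (1.82). More negative were Myh2 (-1.08), Pvalb (-1.49), Myoz1 (-0.62), Hrc (-0.38), Kcna7 (-0.82), Clcn1 (-0.41) and the muscle ribosomal protein gene Rpl3l (-0.55). So were Mb (-1.61), Nmrk2 (-3.13), Lpl (-0.96), Ndufa9 (-0.35), Uqcrc1 (-0.53), Mrpl1 (-0.50) and Mrpl18 (-0.43). The remaining genes were 2310065F04Rik (-2.83), Rmi2 (-2.59), Lgr6 (-2.62), Mdga1 (-1.59) and Dach2 (-1.45).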

How the results depend on the processing

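The count of 1885 SBMA age calls was 2371 with DESeq2, 1866 with RLE factors, 2344 with total-count scaling, 1656 with no filter, 1300 without both libraries with high Chrne (chosen after seeing the data), 2927 in a fit of the 8 libraries alone, and 1088 to 2087 with each library left out. The control count of 0 was 51 with DESeq2, 11 with total-count scaling, 33 with no filter and 0 to 18 with a library left out. The genotype-by-age count of 268 was 649 with DESeq2 and 117 to 342 with a library left out. The perisynaptic count of 621 was 1075 with DESeq2, 1336 with total-count scaling, 987 in a fit of the groups compared alone and 344 to 536 with a library left out. The region-by-age count of 0 was 146 with no filter and 0 with each library left out. The cause of these shifts was not tested. Over 107 genes refitted, 1536 of 1605 values kept their direction and their side of the threshold, 42 lost the call, 21 gained it and 6 changed sign: Chrnd was -0.011 without 26-week replicate 4 (range -0.011 to 0.93 with a library left out), and Trim63 ran from -0.11 to 0.15 and was -0.11 without both libraries with high Chrne.

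Replicate numbers showed no pairing of animals across the ages. This was checked by correlating each library's deviations from its group mean with those of libraries of the other age. For same-numbered SBMA libraries the correlations of deviations were 0.11, -0.15, 0.01 and -0.06. For differently numbered SBMA libraries they ran from -0.19 to 0.15. With a replicate block the SBMA age count was 1519, 1450 of them among the 1885, and the genotype-by-age count was 103.

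Genes under the filter on low counts, such as Chrng and Gdnf, were tested only in the fit with no filter. With 4 animals at each age, calls near the threshold depended on single libraries.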
